A study of Arabidopsis thaliana with 12 samples.

Results

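The pathogenesis-related (PR) proteins and plant defensins of Arabidopsis were followed in seedlings that had been primed with a bacterial signal and then challenged with flagellin. Members were the loci of the deposited comparison tables whose gene column holds *PR1*, *PR2*, *BGL2*, *PR4*, *PR5*, *PDF1.1*, *PDF1.2*, *PDF1.4*, *PDF2.5* or *GLIP1*. These 10 names stand for 9 genes, as *PR2* is the other name of *BGL2*, and they were found at 8 of the 36101 loci. No locus carries the name *PDF1.1*, and that gene is listed under its synonym *LCR67*, so its values are given beside those of the members. The 4 groups held 3 libraries each, 12 in all. Seedlings of 2 weeks labelled *ali1* or Col-0 received, over 3 days of pretreatment, either oxo-C14-HSL at 6 µM (N-3-oxo-tetradecanoyl-homoserine lactone, a quorum-sensing molecule of Gram-negative bacteria) or acetone, its solvent, and every group was then given 100 nM flg22 for 2 h. *ali1* is a single T-DNA insertion line (N560407) in *At5g14470*, the gene *ALI1*, and Col-0 is the wild type. Since every library was challenged with flg22, the comparisons are between pretreatments and between genotype labels in challenged seedlings. A difference already present before the challenge and a difference in the flg22 response cannot be told apart, and that response itself was not measured. RNA came from seedlings, a mixture of tissues, so that fewer cells of a type and less RNA per cell cannot be told apart.

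PR proteins are secreted or vacuolar proteins that accumulate in plants after infection. *PR1*, *BGL2* and *PR5* are classical markers of salicylic acid (SA) signalling and of systemic acquired resistance, whereas *PR4* and *PDF1.2* are used as markers of the jasmonic acid (JA) and ethylene branch. Plant defensins are small secreted peptides held together by disulphide bridges between conserved cysteines, and many inhibit the growth of fungi. GLIP1 is a secreted lipase of the GDSL family that acts in ethylene-associated resistance.

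The tables hold 1 FPKM value (sequenced fragments per kilobase of transcript, corrected for sequencing depth) for each group and none per library. No spread between replicates could be given and no test over samples was made. Levels under the *ali1* and Col-0 labels come from separate runs of the authors' software. From the spacing of the low FPKM values, the groups were within a factor of 1.07 of the Col-0 acetone group in depth, and FPKM values could be turned into approximate fragment numbers summed over the 3 libraries of a group. Ratios below carry the 95% Clopper-Pearson interval of these estimated fragments, which covers counting error only and not the variation between seedlings or libraries. *ALI1* had 30.1 and 27.4 FPKM in the groups labelled *ali1* after oxo-C14-HSL and acetone, against 11.1 and 15.0 FPKM in those labelled Col-0. A description field of the sample labels also names the table of the other genotype. The paper reports no *ALI1* product by PCR from cDNA of *ali1*, whereas *ALI1* was higher here under the *ali1* label. Whether the genotypes were exchanged between the labels was not tested. If they were, each value under 1 label would belong to the other, and each ratio of *ali1* over Col-0 would be inverted. Groups are therefore called by their labels, and each direction below rests on them. The values of 6 leaf marker genes summed to 16741 and 17689 FPKM under the *ali1* label and 18033 and 16735 FPKM under the Col-0 label, after oxo-C14-HSL and acetone in each case. The sums of 9 root marker genes were 450.1 and 442 FPKM under *ali1* and 548 and 412 FPKM under Col-0, so root markers were higher after oxo-C14-HSL under the Col-0 label, mostly through *PYK10* with 505 against 371 FPKM. Of the 4 root markers that passed 1 FPKM, 3 were lower after oxo-C14-HSL under *ali1* and 4 were higher under Col-0. Some of these folds were very small: on the log2 scale *SCR* was at -0.09 under *ali1* and 0.003 under Col-0, and *SHR* at -0.06 and 0.41. Of all loci with a mean of at least 1 FPKM, 53.2% were higher after oxo-C14-HSL under *ali1* and 46.8% under Col-0. The nitrate transporter gene *NRT2.1* had 2.27 and 5.68 FPKM under *ali1* and 2.80 and 1.80 FPKM under Col-0, a log2 fold of -1.28 under *ali1*, and of 1.60 for *ali1* over Col-0 after acetone, so that its order of the pretreatments was opposite under the labels, as for *PR5* below. The root hair genes *EXP7* and *COBL9* and the iron transporter gene *IRT1* were near 0 in every group, and 4 seed markers together stayed at or below 0.680 FPKM. The part of tissue make-up in the results below was not tested.

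The 8 members fell into genes that were abundant and genes that were hardly read. *PDF1.4*, *PR5* and *PR4* passed the filter of a mean of at least 1 FPKM in the groups compared, in all 4 comparisons. *BGL2*, *PDF2.5* and *GLIP1* stayed below 1 FPKM in every group, while *PDF1.2* was at about 1 fragment in 1 group and *PR1* was listed at 0 throughout. The coding sequences of the defensins are shown because the results turn on the contrast between an abundant defensin and its scarcely read relatives. They are printed from the start codon to the stop codon, from RefSeq (build TAIR10.1), with the cysteine codons in capitals.
PDF1.4: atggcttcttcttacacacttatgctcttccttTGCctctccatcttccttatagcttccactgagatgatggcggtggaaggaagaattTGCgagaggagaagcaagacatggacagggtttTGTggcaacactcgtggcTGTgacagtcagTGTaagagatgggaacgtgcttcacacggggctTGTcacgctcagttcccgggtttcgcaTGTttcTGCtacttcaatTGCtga
PDF1.2: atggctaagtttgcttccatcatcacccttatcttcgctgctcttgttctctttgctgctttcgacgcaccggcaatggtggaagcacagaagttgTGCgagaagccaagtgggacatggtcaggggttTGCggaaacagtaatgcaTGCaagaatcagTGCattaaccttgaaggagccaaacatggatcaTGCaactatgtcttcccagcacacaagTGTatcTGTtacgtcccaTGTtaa
PDF2.5: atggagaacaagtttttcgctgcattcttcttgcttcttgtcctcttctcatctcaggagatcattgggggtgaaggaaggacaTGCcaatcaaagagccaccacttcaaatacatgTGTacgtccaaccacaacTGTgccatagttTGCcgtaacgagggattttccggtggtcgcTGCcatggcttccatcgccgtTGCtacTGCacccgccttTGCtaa
*PDF1.4* has 9 cysteine codons among 78, *PDF1.2* has 8 among 80 and *PDF2.5* has 8 among 73. Their coding sequences were 58.0% identical between *PDF1.2* and *PDF1.4*, 51.6% between *PDF1.2* and *PDF2.5* and 50.6% between *PDF1.4* and *PDF2.5*. Among the defensins compared with *PDF1.2*, the closest were *PDF1.2b* (93.8%), *PDF1.2c* (93.4%), *PDF1.3* (91.4%) and *LCR67* (87.7%). No 100-base window of any member's transcript, the length of the reads, recurred exactly elsewhere in the genome, and no member overlapped another reference gene. Reads with mismatches could still have been shared between such copies by the authors' counting.

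**Figure D1:**
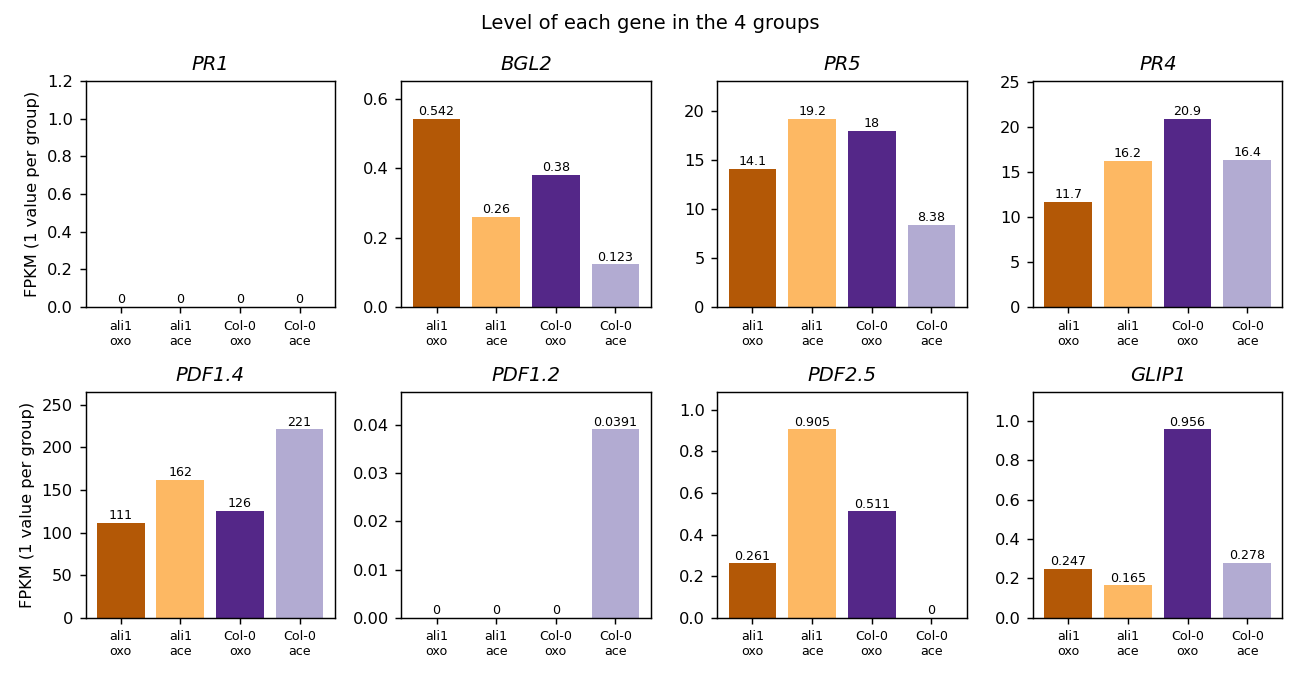
FPKM of each member in the 4 groups, 1 bar per group and each panel on its own axis from 0, with *ali1* and Col-0 as labelled and oxo or ace for oxo-C14-HSL or acetone. *PDF1.4* was between 111 and 221 FPKM, *PR5* and *PR4* between 8.38 and 20.9 FPKM, and the other 5 members stayed below 1 FPKM.

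The SA markers were read at very different levels. *PR1* (AT2G14610, chr2:6241640-6242541, minus strand, 1 exon), which encodes a small secreted protein of the CAP superfamily, was listed at 0 FPKM in all 4 groups. A level of up to 0.0589 to 0.0631 FPKM, that of 3 fragments in a group, could have gone unseen. Of 12860 loci with a single transcript of at least 600 bases, 1677 were at 0 in all 4 groups, as *PR1* was. Of the 12860 loci, 0 were at 0 in a group and at 5 FPKM or more in another, and 8 were at 0 in a group and at 0.5 FPKM or more in another. Whether the 0 of *PR1* is a level below this limit or a failed estimate was not tested.

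*BGL2* (AT3G57260, chr3:21188397-21189967, minus strand, 2 exons), which encodes the beta-1,3-glucanase PR2, had 0.542 and 0.260 FPKM in seedlings labelled *ali1* after oxo-C14-HSL and acetone, from about 49 and 23 fragments. In seedlings labelled Col-0 it had 0.380 and 0.123 FPKM, from about 35 and 11 fragments. The value after oxo-C14-HSL was the higher one under both labels, with a ratio of 2.09 (1.26 to 3.63) under *ali1* and 3.09 (1.47 to 6.48) under Col-0. Both intervals lie above 1 and overlap each other widely, and the gene did not reach the filter.

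*PR5* (AT1G75040, chr1:28177670-28179022, plus strand, 2 exons) encodes a thaumatin-like protein, a family with antifungal members. It had 14.1 and 19.2 FPKM in seedlings labelled *ali1* after oxo-C14-HSL and acetone, and 18.0 and 8.38 FPKM in those labelled Col-0. The Col-0 acetone group stood below the other 3 groups, which lay within 14.1 to 19.2 FPKM. The ratio of oxo-C14-HSL over acetone was 0.733 (0.671 to 0.800) under the *ali1* label and 2.15 (1.93 to 2.39) under the Col-0 label. On the log2 scale, with 0.1 FPKM added to each value, these are -0.45 and 1.09, a difference of -1.54 (*ali1* minus Col-0) that was not tested. After acetone, *PR5* was 2.295 times (2.07 to 2.55) as high under *ali1* as under Col-0, and after oxo-C14-HSL 0.783 times (0.717 to 0.855). Its relative *TLP3* (77.2% identical in coding sequence), the only one compared with it in sequence, had 0.367 and 0.742 FPKM under *ali1* and 0.746 and 0.752 FPKM under Col-0.

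**Figure D2:**
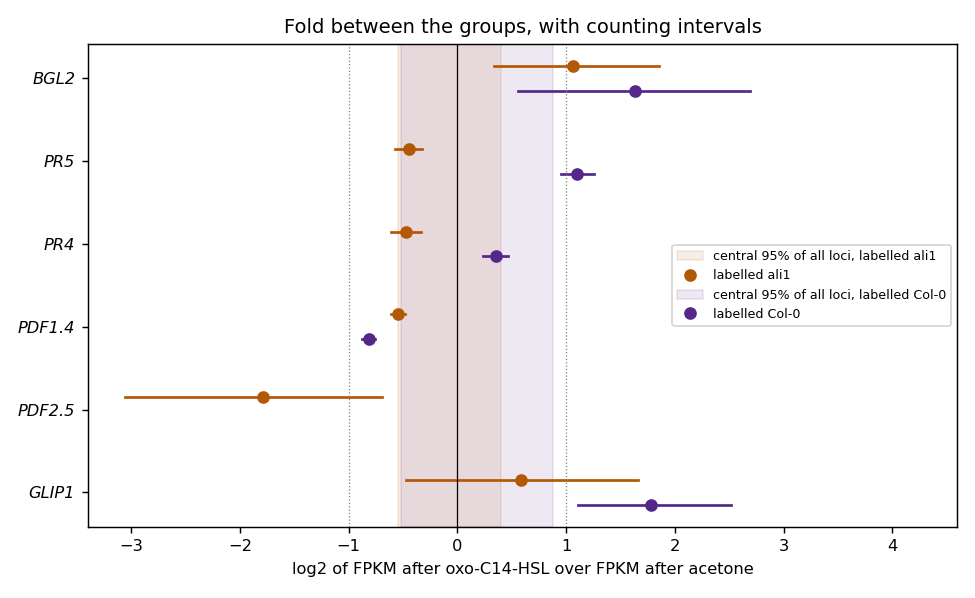
Ratio of FPKM after oxo-C14-HSL over FPKM after acetone on a log2 scale without an added constant, for the 6 members with a value above 0 in both groups of a label; lines are 95% counting intervals, shaded bands the central 95% of all loci of at least 1 FPKM, and dotted lines mark a fold of 2. *PR5* and *PR4* lie on opposite sides of 0 under the labels, and *PDF1.4* lies below 0 under both.

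Among the JA and ethylene markers, *PR4* (AT3G04720, chr3:1285425-1286760, minus strand, 2 exons), which encodes a hevein-like protein that binds chitin, was readily read. It had 11.7 and 16.2 FPKM in seedlings labelled *ali1* after oxo-C14-HSL and acetone, against 20.9 and 16.4 FPKM in those labelled Col-0. The acetone groups did not differ beyond counting error, with a ratio of *ali1* over Col-0 of 0.990 (0.908 to 1.08), and the oxo-C14-HSL groups were apart, with a ratio of 0.559 (0.511 to 0.611). Within a label, oxo-C14-HSL over acetone was 0.721 (0.656 to 0.792) under *ali1* and 1.28 (1.18 to 1.38) under Col-0. The log2 folds of -0.47 and 0.35 differ by -0.82 (*ali1* minus Col-0), without a test, and neither reaches a log2 fold of 1. *PR5* and *PR4* thus shared the sign of the pretreatment ratio in each label. The acetone groups were apart for *PR5* and not for *PR4*, whose oxo-C14-HSL groups lay on either side of the acetone level.

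*PDF1.2* (AT5G44420, chr5:17906968-17907638, minus strand, 2 exons), the defensin gene used as the standard JA and ethylene marker, was listed at 0 in both groups labelled *ali1* and after oxo-C14-HSL in Col-0, and at 0.0391 FPKM, about 1 fragment, after acetone in Col-0. No ratio can be drawn from these values. *LCR67* (AT1G75830, chr1:28472357-28472898, plus strand), the gene *PDF1.1*, had 0.245 and 0.299 FPKM under *ali1* and 0.119 and 0.178 FPKM under Col-0, from about 2 to 5 fragments a group. The class 1 defensins close to *PDF1.2* were thus at or near the limit of detection in every group, although *PDF1.4* was not.

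*PDF1.4* (AT1G19610, chr1:6781483-6782216, minus strand, 2 exons) was the most abundant member in every group. It had 111 and 162 FPKM in seedlings labelled *ali1* after oxo-C14-HSL and acetone, and 126 and 221 FPKM in those labelled Col-0, from about 3276 to 6286 fragments. The value after oxo-C14-HSL was the lower one under both labels. The ratio was 0.685 (0.655 to 0.716) under *ali1* and 0.568 (0.546 to 0.592) under Col-0, or -0.55 and -0.82 on the log2 scale. The central 95% of all loci spans -0.54 to 0.40 under *ali1*, with *PDF1.4* at its lower edge, and -0.52 to 0.88 under Col-0, with *PDF1.4* below it. Between labels, *ali1* over Col-0 was 0.733 (0.705 to 0.761) after acetone and 0.883 (0.842 to 0.925) after oxo-C14-HSL.

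*PDF2.5* (AT5G63660, chr5:25485486-25486324, plus strand, 2 exons), a defensin of the second class, had 0.261 and 0.905 FPKM in seedlings labelled *ali1* after oxo-C14-HSL and acetone, from about 9 and 31 fragments. In seedlings labelled Col-0 it had 0.511 FPKM after oxo-C14-HSL, from about 18 fragments, and was listed at 0 after acetone. The ratio under *ali1* was 0.289 (0.120 to 0.618), and none is given under Col-0. The order of the pretreatments was thus opposite under the labels, as it was for *PR5* and *PR4*, but on few fragments, and under Col-0 through a listed 0. *PDF2.5* has 1 transcript, of 690 bases. It is thus among the 8 loci counted above at 0 in a group and at 0.5 FPKM or more in another. Whether the 0 of *PDF2.5* is a low level or a failed estimate was not tested.

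*GLIP1* (AT5G40990, chr5:16418842-16420616, plus strand, 5 exons) had 0.247 and 0.165 FPKM in seedlings labelled *ali1* after oxo-C14-HSL and acetone, and 0.956 and 0.278 FPKM in those labelled Col-0. The estimated fragments were 21 and 14 under *ali1* and 85 and 23 under Col-0. The Col-0 oxo-C14-HSL group stood above the other 3 groups. Oxo-C14-HSL over acetone was 1.496 (0.720 to 3.16) under *ali1*, an interval that includes 1, and 3.44 (2.15 to 5.73) under Col-0. After oxo-C14-HSL, *ali1* over Col-0 was 0.258 (0.1501 to 0.415), whereas after acetone it was 0.593 (0.282 to 1.201). The transcript stayed below 1 FPKM throughout.

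Counted over the members, a log2 fold of at least 1 was reached by few. Under the *ali1* label, of the 3 members that passed the filter 0 were higher and 0 were lower with oxo-C14-HSL, where 0.34% of 16766 loci were higher and 0.543% lower. Under the Col-0 label 1 member, *PR5*, was higher and 0 were lower, where 1.58% and 0.415% of 16856 loci were. *PR5* stood just past this fold, and of the members that passed the filter *PDF1.4*, with -0.82, was the nearest inside it. For *ali1* over Col-0 after acetone *PR5* was again the 1 member higher and 0 were lower, where 1.15% and 0.67% of loci were, and after oxo-C14-HSL 0 members passed the fold, where 0.419% of loci were higher and 1.17% lower. The contrast within Col-0 and that between the acetone groups share the Col-0 acetone group, in which *PR5* was low. With no filter on low values, the members past the fold under Col-0 were the 4 genes *BGL2*, *PR5*, *PDF2.5* and *GLIP1*, all higher, where 3.81% of 24943 loci were higher and 1.48% lower. Under *ali1* it was then *PDF2.5* alone, lower, where 1.44% of 24989 loci were higher and 2.26% lower. For *ali1* over Col-0 after acetone these were *PR5* and *PDF2.5*, both higher, where 3.26% of loci were higher and 1.77% lower. Between the oxo-C14-HSL groups it was *GLIP1* alone, lower, where 1.47% of loci were higher and 3.03% lower. These calls depend on the constant added to low values: with 1 FPKM added in place of 0.1, the log2 folds were 0.30 for *BGL2* and 0.61 for *GLIP1* under Col-0, -0.60 for *PDF2.5* under *ali1* and -0.65 for *GLIP1* between the oxo-C14-HSL groups. The calls of *PDF2.5* under Col-0 and between the acetone groups rest on its listed 0 in Col-0 acetone and were not recalculated in this way. With a running median taken off, *BGL2* under Col-0 was at 0.81. The median over all loci of at least 1 FPKM was 0.01 under *ali1*, -0.02 under Col-0, -0.05 between the acetone groups and -0.02 between the oxo-C14-HSL groups.

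The promoters of 4 members are shown because these genes stood apart in a different way: *PR5* was low in Col-0 acetone, *GLIP1* was high in Col-0 oxo-C14-HSL, *PDF1.4* was lower after oxo-C14-HSL under both labels, and *PDF1.2* was hardly read. Each is the 250 bases before the annotated gene start, on the strand of the gene (RefSeq, build TAIR10.1), at chr1:28177420-28177669 (plus), chr5:16418592-16418841 (plus), chr1:6782217-6782466 (minus) and chr5:17907639-17907888 (minus). Capitals mark matches, on either strand, to TTGAC (the core of the W-box bound by WRKY factors), TGACG (the core of the as-1 element bound by TGA factors) and GCCGCC (the GCC box bound by ethylene response factors).
PR5: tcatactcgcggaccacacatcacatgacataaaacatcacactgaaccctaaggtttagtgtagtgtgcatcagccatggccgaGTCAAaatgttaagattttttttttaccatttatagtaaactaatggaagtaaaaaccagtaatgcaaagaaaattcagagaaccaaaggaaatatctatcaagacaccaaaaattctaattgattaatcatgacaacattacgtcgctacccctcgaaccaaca
GLIP1: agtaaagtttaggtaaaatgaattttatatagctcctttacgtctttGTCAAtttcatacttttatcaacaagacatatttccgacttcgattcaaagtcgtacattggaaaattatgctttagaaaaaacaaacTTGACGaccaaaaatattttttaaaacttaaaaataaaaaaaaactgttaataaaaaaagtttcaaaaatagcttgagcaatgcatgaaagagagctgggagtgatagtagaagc
PDF1.4: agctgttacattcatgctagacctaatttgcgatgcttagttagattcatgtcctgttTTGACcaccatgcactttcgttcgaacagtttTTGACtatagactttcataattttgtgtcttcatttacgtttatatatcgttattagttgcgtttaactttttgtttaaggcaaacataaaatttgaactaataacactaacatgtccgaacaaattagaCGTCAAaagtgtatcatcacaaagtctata
PDF1.2: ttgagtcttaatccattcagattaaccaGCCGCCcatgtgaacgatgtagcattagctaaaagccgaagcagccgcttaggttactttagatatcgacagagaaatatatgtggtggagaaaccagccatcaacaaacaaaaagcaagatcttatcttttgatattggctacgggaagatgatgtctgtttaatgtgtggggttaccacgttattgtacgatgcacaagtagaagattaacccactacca
Positions count back from the gene start and give the first base of a match along the gene. TTGAC matched at -165 in *PR5*, at -203 and -115 in *GLIP1*, and at -192, -160 and -29 in *PDF1.4*. TGACG overlapped the match at -115 in *GLIP1*, from -114, and that at -29 in *PDF1.4*, from -30. *PDF1.2* held GCCGCC at -222 and neither of the other motifs. Among the remaining members TTGAC matched at -104 in *PR1* and at -37 in *PDF2.5*, and *BGL2* and *PR4* held none of the 3 motifs in this window. Over 27561 promoters of this length, 44.9% held TTGAC at least once and 3.36% at least 3 times, 18.5% held TGACG and 1.88% held GCCGCC. These are matches of letters only.

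The other genes of the same families gave a frame for the members. Of 14 other PR-type genes, 8 passed the filter under *ali1* and 0 of these reached the fold in either direction, with a median log2 fold of -0.61 and 7 of 8 below 0. AT2G19990 is 1 of the 8, with 0.881 and 1.37 FPKM under *ali1* after oxo-C14-HSL and acetone. It passed only through the acetone group, where it was high, so the count and the median are descriptions only. Under Col-0, 7 passed, 0 reached the fold, and the median was 0.12 with 3 of 7 below 0. The medians of all loci that passed were 0.01 under *ali1* and -0.02 under Col-0, with 53.2% and 46.8% of these loci above 0. Of the PR-type genes with a mean of at least 1 FPKM over the groups, 5 of 7 were lowest in the *ali1* oxo-C14-HSL group, where 23.0% of all loci were lowest. The genes named here were chosen after their values were seen. The osmotin gene *OSM34*, a relative of *PR5*, had 36.7 and 49.6 FPKM under *ali1* after oxo-C14-HSL and acetone, and 70.7 and 47.5 FPKM under Col-0. The basic chitinase gene *PR3* had 2.69 and 4.87 FPKM under *ali1* and 6.47 and 5.14 FPKM under Col-0. Both were thus lower after oxo-C14-HSL under *ali1* and higher under Col-0, as *PR4* was. The acidic chitinase gene *CHIA* had 8.60 and 16.6 FPKM under *ali1* and 8.66 and 11.2 FPKM under Col-0, the lower value after oxo-C14-HSL under both labels.

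Of 11 other defensins, 2 passed the filter under *ali1* with a median log2 fold of -0.13, and 3 passed under Col-0 with a median of 0.94, 1 of them past the fold and higher. That gene, *PDF2.1*, passed the filter only through the oxo-C14-HSL group, where it was high, so neither the count nor the median is read further. It is the relative of *PDF2.5* with 60.7% identity, and had 0.633 and 1.21 FPKM under *ali1* and 1.78 and 0.339 FPKM under Col-0 after oxo-C14-HSL and acetone. *PDF2.2* had 23.3 and 28.8 FPKM under *ali1* and 46.6 and 24.2 FPKM under Col-0, and *PDF2.3* had 20.9 and 20.3 FPKM under *ali1* and 31.7 and 17.0 FPKM under Col-0, both named after their values were seen. *PDF2.2* and *PDF2.3*, the 2 with a mean of at least 1 FPKM over the 4 groups, were highest in the Col-0 oxo-C14-HSL group. Of all such loci, 28.9% were highest there. *PDF2.1* is not counted, since it passed the filter under Col-0 only through that group. *PDF1.2b*, *PDF1.2c* and *PDF1.3* were at or near 0. Of 5 other GLIP lipases, 4 passed under each label, 0 reached the fold, and the medians were -0.03 under *ali1* and -0.32 under Col-0. The 4 that passed were all below 0 under Col-0, where 46.8% of all loci that passed were above 0, as *GLIP1* was. *GLIP4* is 1 of the 4, with 0.966 and 1.184 FPKM under Col-0 after oxo-C14-HSL and acetone. It passed under both labels only through the acetone group, where it was high. The count below 0 and both medians are therefore descriptions only. *GLIP2*, the only lipase compared with *GLIP1* in coding sequence, was 84.1% identical to it.

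**Figure D3:**
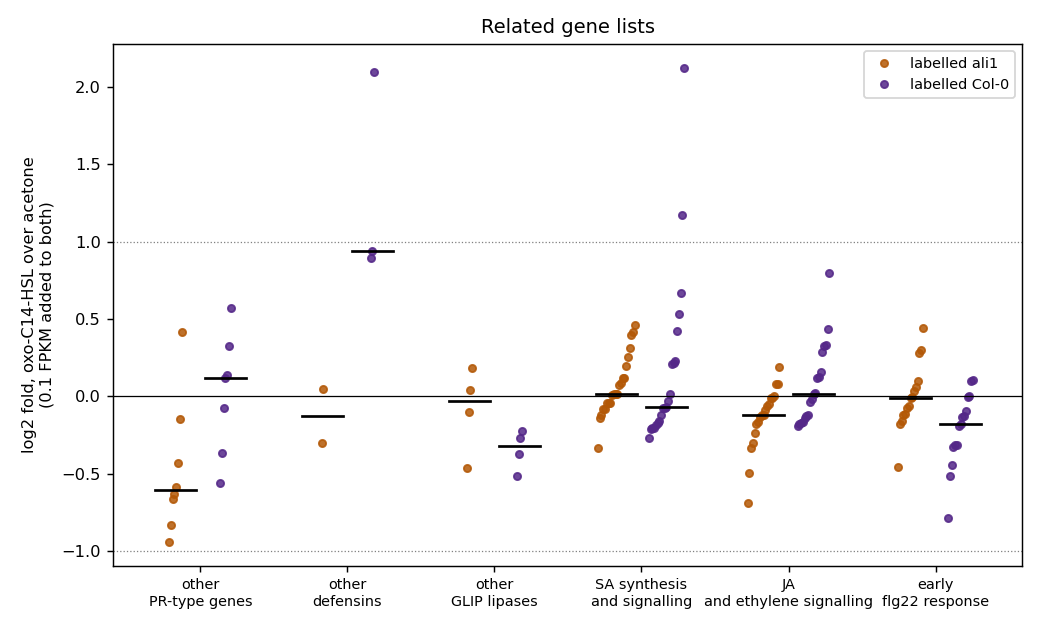
Log2 fold of oxo-C14-HSL over acetone (0.1 FPKM added) for each gene with a mean of at least 1 FPKM in 6 lists, labelled *ali1* left and Col-0 right, with a line at each median and dotted lines at a fold of 2. The other PR-type genes have a median of -0.61 under *ali1* and 0.12 under Col-0, and *PBS3*, *PDF2.1* and *WRKY70* lie past the fold under Col-0. These are descriptions only. AT2G19990 passed under *ali1* only through acetone, as *GLIP4* did under both labels. *PBS3*, *PDF2.1* and *WRKY70* passed under Col-0 only through oxo-C14-HSL.

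The lists of signalling genes had medians nearer 0 than that of the other PR-type genes under *ali1*. This is a description only, since AT2G19990 entered the PR-type median through its acetone group. Of 23 genes of SA synthesis and signalling, 22 passed under *ali1* with 0 past the fold and a median of 0.02, and 21 passed under Col-0 with 2 higher, 0 lower and a median of -0.07. The genes past the fold were *PBS3*, which encodes the enzyme that conjugates glutamate to isochorismate on the way to SA, and *WRKY70*, a transcription factor gene of SA signalling. *PBS3* had 3.83 and 3.65 FPKM under *ali1* and 3.27 and 0.672 FPKM under Col-0 after oxo-C14-HSL and acetone, a log2 fold of 2.12 under Col-0. *WRKY70* had 1.49 and 1.05 FPKM under *ali1* and 1.74 and 0.717 FPKM under Col-0, a log2 fold of 1.17 under Col-0. Both were below 1 FPKM in the Col-0 acetone group and passed the filter under Col-0 only through the oxo-C14-HSL group, where they were high, so their count is a description only. *SARD1*, with 1.23 and 0.890 FPKM under Col-0 after oxo-C14-HSL and acetone, passed in the same way, so the median under Col-0 is likewise a description. The SA synthesis genes *ICS1*, with 25.1 and 26.5 FPKM under *ali1* and 25.8 and 16.2 FPKM under Col-0, and *EDS5*, with 7.28 and 7.93 FPKM under *ali1* and 7.44 and 5.11 FPKM under Col-0, were lowest in the Col-0 acetone group, as *PR5* was, and were named after their values were seen. Of all loci with a mean of at least 1 FPKM over the 4 groups, 25.5% were lowest in that group, and so were 8 of 21 genes of the SA list, while another 8 of 21 were highest there, where 37.7% of all loci were highest. Among 16846 loci searched, the 3 with a profile closest to that of *PR5* were *PG1*, AT3G62820 and *PDLP7*, at Euclidean distances of 0.0728, 0.0738 and 0.0750 between centred log2 values. Over 4 values, likeness of this kind is a description.

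**Figure D4:**
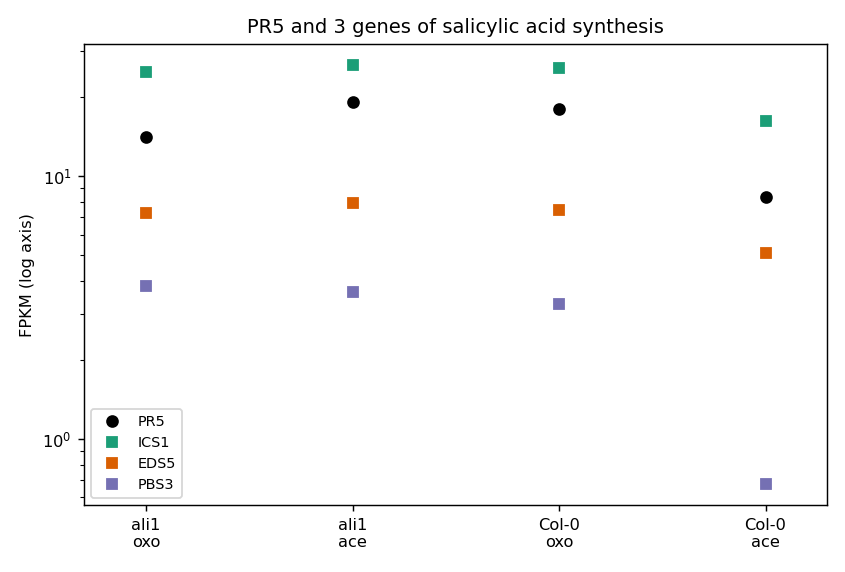
FPKM of *PR5* and 3 genes of SA synthesis in the 4 groups on a log axis, 1 point per group. Each of the 4 genes is lowest in the Col-0 acetone group, where *PBS3* has 0.672 FPKM and *PR5* 8.38 FPKM. *ICS1* and *EDS5* were named after their values were seen, and of 21 genes of the SA list 8 were lowest in that group and another 8 highest.

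Of 20 genes of JA and ethylene signalling, 19 passed under each label and 0 reached the fold in either direction. The medians were -0.12 under *ali1*, with 15 of 19 below 0, and 0.02 under Col-0, with 9 of 19 below 0. *VSP2*, with 0.945 and 1.07 FPKM under Col-0 after oxo-C14-HSL and acetone, passed there only through the acetone group. The count and median under Col-0 are therefore descriptions only. Of all loci that passed the filter, 53.2% were above 0 under *ali1* and 46.8% under Col-0, a background for these counts and those that follow. Of 15 genes of the early flg22 response, all passed under both labels, 0 reached the fold, and the medians were -0.01 under *ali1* and -0.18 under Col-0, with 9 of 15 and 12 of 15 below 0.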

How the data were processed

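RNA of 12 seedling libraries was sequenced by the authors on a BGISEQ platform. The authors aligned reads with RNAStar and ran Cufflinks 2.2.1.0, cuffmerge and Cuffdiff 2.2.1.5 once per genotype, with TAIR10 named in the submitters' processing notes. The deposited values used are FPKM, 1 per group, over 36101 loci. The deposited fold change, test statistic, p-value, q-value and call were not used. In the *ali1* table, 44 loci marked as too deep were set aside. Of 37632 gene names, 37580 matched the reference.

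Folds were computed as log2(FPKM + 0.1) differences at loci with a mean of at least 1 FPKM, and a log2 fold of 1 was counted. Fragments were estimated from FPKM and effective length (mean 200, SD 80 bases assumed). Low values fell within 0.15 of whole numbers in 97.9%, 97.6%, 98.3% and 88.4% of cases (*ali1* oxo-C14-HSL, *ali1* acetone, Col-0 oxo-C14-HSL, Col-0 acetone), against 30% for evenly spread values. Python 3.11.15, numpy 2.4.6, pandas 2.3.3, scipy 1.17.1, biopython 1.88 and matplotlib 3.10.9 were used, and the computation was tested on simulated data. The rule for named genes took all members, relatives compared with them in coding sequence, *ALI1*, up to 3 genes past the fold per list, and the 3 profiles closest to each member past the fold. Other genes in the text were named after their values were seen. The members and lists were chosen with earlier results of these data known. Pseudocounts, filters, centring, a running median and fold thresholds were varied.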

Additional observations from a re-analysis of the deposited data

Results flagged for a closer look

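For *PR5* and *PR4* the labels gave opposite orders of the pretreatments. The log2 fold of *PR5* under *ali1* minus that under Col-0 was -1.54, and that of *PR4* was -0.82. These differences were not tested, since the tables hold 1 value per group.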

How the results depend on the processing

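Under the *ali1* label 0 members passed the fold, and 1 did, lower, with no filter on low values. Under Col-0 the 1 member became 4 with no filter, 2 (1 higher and 1 lower, *PDF1.4*) at a fold of 1.5, and 0 at a log2 fold of 2. For *ali1* over Col-0 after acetone the 1 member became 2 with no filter and 0 at a log2 fold of 2, and after oxo-C14-HSL the 0 members became 1, lower, with no filter (*GLIP1*) and 1, lower, at a fold of 1.5 (*PR4*). Pseudocounts of 0.01 and 1 FPKM, a filter at 5 FPKM, centring and a running median left the counts made with the filter at 1 FPKM and a log2 fold of 1 as they were. Calls without the filter were not stable: with 1 FPKM added, *BGL2* (0.30) and *GLIP1* (0.61) under Col-0, *PDF2.5* (-0.60) under *ali1* and *GLIP1* between the oxo-C14-HSL groups (-0.65) were inside the fold. Those of *PDF2.5* under Col-0 and between the acetone groups, which rest on a listed 0, were not recalculated. Of 88 log2 folds of members under the alternatives 2 changed sign, both of *PR4* for *ali1* over Col-0 after acetone (0.03 and 0.04), and of 20 differences between labels 1 did, that of *BGL2* (0.09 with the running median). No paired analysis was possible because the tables hold 1 value per group and the results come from no test, and no replicate could be left out. The members below 1 FPKM rest on at most 85 estimated fragments a group.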
